A study of Homo sapiens with 20 samples.

Results

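The 40 genes described here encode proteins that build ribosomes in the nucleolus, and they were taken by gene symbol from a named list, which was drawn up with earlier results of these data known. All 40 were found in the annotation and all 40 passed the count filter, among 27697 mRNA and lncRNA genes tested in the whole dataset. They fall into 5 roles, with 8 genes of the small nucleolar ribonucleoproteins (snoRNPs) and their chaperone, 5 genes of RNA polymerase I transcription, 3 genes of abundant nucleolar proteins, 11 genes of small subunit assembly and 13 genes of large subunit assembly.

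The cells were NGP, an established human neuroblastoma line that carries extra copies of MYCN and MDM2. Poly(A)+ RNA was sequenced from 10 samples that received nutlin-3 as a racemic mixture at 8 µM and from 10 samples that received its solvent, ethanol (vehicle). All samples come from this single line, the vehicle samples carry the same amplifications, and the treatment time is not given in the sources used here. The study used the dataset to compare tools for differential expression, and the comparison its design implies is nutlin against vehicle.

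Ribosome production starts in the nucleolus, where RNA polymerase I transcribes the long precursor of the ribosomal RNAs. snoRNPs modify that precursor at chosen bases, C/D snoRNPs by methylation and H/ACA snoRNPs by pseudouridylation, and large assemblies of processing factors then fold, cut and export the small (40S) and large (60S) subunits. The pathway is tied to p53, since free 5S RNP (RPL5, RPL11 and 5S rRNA) binds MDM2 when assembly stalls, and to MYC proteins, which activate many of its genes. Nutlin-3 occupies the p53 pocket of MDM2 and so stabilizes p53.

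Sequencing depth, as the total of the estimated counts, was 14455477 to 19532971 read pairs per sample. MDM2, itself a p53 target, separated the conditions as labelled, at 199 to 290 CPM (counts scaled to library size) with vehicle and 4797 to 6005 CPM with nutlin. The 10 neuroblastoma markers were all expressed, and their summed level was 4272 to 5124 TPM (counts scaled to transcript length and library size) with vehicle and 4633 to 5616 TPM with nutlin. The 8 markers of blood, fibroblast, endothelial, liver and epithelial cells summed to 2.997 to 4.92 TPM with vehicle and 10.8 to 17.2 TPM with nutlin, with HBB at 0 in all samples and ALB at 0 in all vehicle samples. Of these 8 markers COL1A1, CD68 and PECAM1 were significantly differentially expressed (SDE), all higher with nutlin. All 14 genes of a proliferation list were SDE and lower with nutlin, with a median log2 fold change (LFC) of -2.68 and a summed level of 1824 to 2118 TPM with vehicle and 385 to 474 TPM with nutlin. The part that either shift plays in the results below was not tested. In bulk RNA, fewer cells of a kind and less RNA of a gene per cell cannot be told apart. Vehicle replicate 10 and nutlin replicate 6 stood apart in having the highest mean log2 deviation of their condition over the 40 genes (0.12 in each) and over 79 ribosomal protein genes (0.38 and 0.41).

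After nutlin most of the 40 genes were lower, but not all parts of the pathway moved in the same direction. All 8 snoRNP genes and all 3 genes of abundant nucleolar proteins fell, whereas 3 subunits of RNA polymerase I (POLR1A, POLR1B and POLR1C) and 5 small subunit factors rose. At 5% FDR 26 genes were lower, 11 were higher and 3 (BOP1, PES1 and BYSL) did not pass the test (edgeR quasi-likelihood F-test, Benjamini-Hochberg adjustment over all genes tested). The share of all genes tested that was lower was 26.5% and the share that was higher was 32.3%. These 40 genes are well expressed, however, and among the 9443 mRNAs with a mean of at least 10 CPM 59.3% were lower and 26.0% were higher. The counts for the 40 genes therefore lie near those of mRNAs of such levels. The median LFC was -0.28 for the 40 genes, -0.24 for the mRNAs with at least 10 CPM and 0.19 for all genes tested.

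These counts are relative to the TMM scaling. With library totals alone as the scale, the LFC of all genes shifted by a median of 0.19, and 20 of the 40 genes were lower and 14 higher. WDR12, PES1, BOP1 and BYSL changed sign on that scale, and TCOF1, NOP14, UTP4, NOP16 and RRP1 stayed lower without passing the test. The split was 26 lower and 11 higher with the DESeq2 size factors and also without vehicle replicate 10 and nutlin replicate 6.

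In 20 of the 40 genes every nutlin sample lay below every vehicle sample, and in 3 (NOL6, POLR1A and RRP12) every nutlin sample lay above. Over all genes tested these shares were 16.6% and 12.2%. They were not counted among the mRNAs with a mean of at least 10 CPM. Whether the 40 genes separated more often than genes of like level is therefore not known, and the same holds for the roles. By role, the samples separated downwards in 7 of 8 snoRNP genes, 2 of 3 abundant nucleolar genes, 2 of 5 polymerase I genes, 3 of 11 small subunit genes and 6 of 13 large subunit genes. The 40 genes took 0.812% to 0.861% of a sample's estimated counts with vehicle (median 0.831%) and 0.683% to 0.742% with nutlin (median 0.706%), with no overlap between the conditions. The coefficient of variation within a condition was between 2.35% and 18.4% for a gene.

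**Figure D1:**
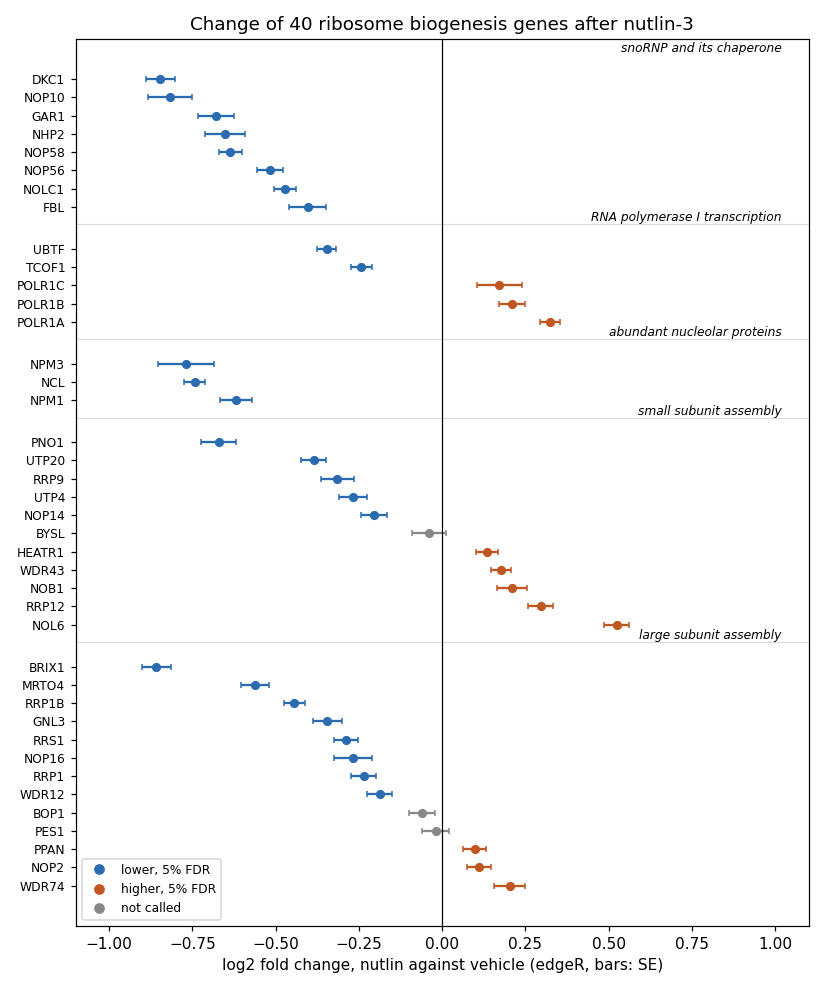
LFC of each of the 40 genes (horizontal axis, nutlin against vehicle, bars show the SE), grouped by role and coloured by the call at 5% FDR. All 8 snoRNP genes and all 3 abundant nucleolar genes lie left of 0, and the highest value is that of NOL6 at 0.52.

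**Figure D2:**
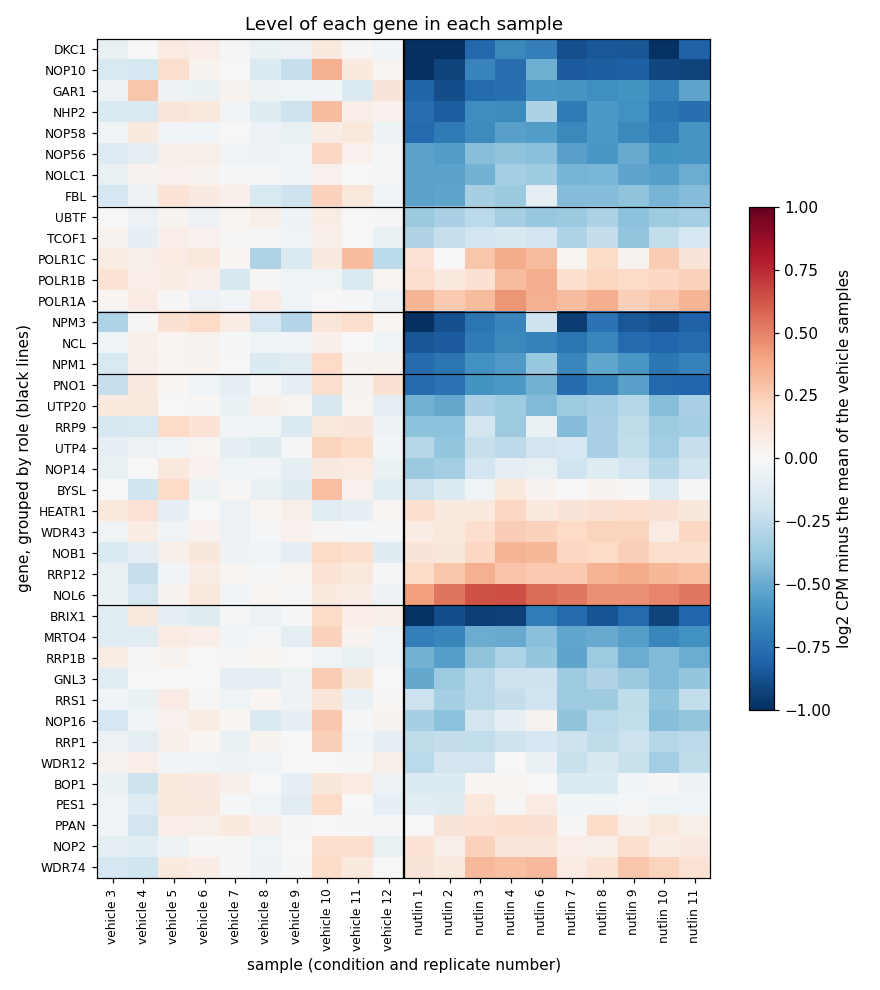
Log2 CPM of each gene (rows, grouped by role) in each of the 20 samples (columns), minus the mean of the vehicle samples. The snoRNP rows are blue in the nutlin samples, the NOL6 and POLR1A rows are red, and vehicle replicate 10 and nutlin replicate 6 are redder than the other samples of their condition.

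The snoRNP genes fell together. DKC1 encodes dyskerin, the pseudouridine synthase of the H/ACA snoRNPs that also binds telomerase RNA. It was at 247 to 278 CPM with vehicle (median 258) and at 129 to 166 CPM with nutlin (median 144), with an LFC of -0.85 (SE 0.043, adjusted p = 6.96e-17). Its partner NOP10, the smallest protein of the particle, was at 153 to 230 CPM with vehicle (median 182) and at 89.4 to 128 CPM with nutlin (median 101), with an LFC of -0.82 (SE 0.065, adjusted p = 3.45e-12). The conditions did not overlap for either gene. GAR1, which helps load the target RNA, was at 28.0 to 37.3 CPM with vehicle (median 29.8) and at 16.6 to 21.4 CPM with nutlin (median 19.7), with an LFC of -0.68 (SE 0.054, adjusted p = 2.66e-12). NHP2, the fourth core protein, was at 182 to 259 CPM with vehicle (median 210) and at 118 to 168 CPM with nutlin (median 132), with an LFC of -0.65 (SE 0.060, adjusted p = 7.38e-11). These 4 genes make up the whole protein core of the H/ACA particle, and none of them overlapped between the conditions.

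Of the C/D snoRNP proteins, NOP58 was at 177 to 200 CPM with vehicle (median 182) and at 109 to 127 CPM with nutlin (median 119), with an LFC of -0.64 (SE 0.034, adjusted p = 3.72e-16). NOP56, with which it pairs in the particle, was at 396 to 500 CPM with vehicle (median 425) and at 286 to 328 CPM with nutlin (median 298), with an LFC of -0.52 (SE 0.039, adjusted p = 1.00e-12). FBL, the methyltransferase fibrillarin, fell least of the 8, from 653 to 882 CPM with vehicle (median 757) to 518 to 703 CPM with nutlin (median 558), with an LFC of -0.40 (SE 0.054, adjusted p = 1.59e-07). It was the only snoRNP gene whose conditions overlapped, and nutlin replicate 6 held its highest nutlin value. NOLC1 (Nopp140), a chaperone that shuttles snoRNPs to the nucleolus, had an LFC of -0.47 (SE 0.032, adjusted p = 6.72e-14).

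All 3 genes of abundant nucleolar proteins fell. NPM1 (nucleophosmin), a histone and ribosome chaperone and the most abundant of the 40 mRNAs, was at 1951 to 2496 CPM with vehicle (median 2222) and at 1273 to 1670 CPM with nutlin (median 1408), with an LFC of -0.62 (SE 0.047, adjusted p = 1.33e-12). NCL (nucleolin), which binds the ribosomal RNA precursor, was at 1398 to 1493 CPM with vehicle (median 1431) and at 796 to 918 CPM with nutlin (median 854), with an LFC of -0.74 (SE 0.032, adjusted p = 1.85e-18). NPM3, a smaller relative of nucleophosmin, was at 39.67 to 56.4 CPM with vehicle (median 50.9) and at 22.9 to 42.6 CPM with nutlin (median 27.7), with an LFC of -0.77 (SE 0.083, adjusted p = 2.22e-09). NPM1 and NCL did not overlap between conditions, and NPM3 overlapped only through nutlin replicate 6.

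Of the 5 genes of RNA polymerase I transcription, the 3 subunits rose and UBTF and TCOF1 fell. POLR1A, the largest subunit, was at 169 to 187 CPM with vehicle (median 176) and at 207 to 239 CPM with nutlin (median 221), with an LFC of 0.32 (SE 0.030, adjusted p = 1.23e-10). POLR1B, the second largest subunit, was at 65.1 to 79.7 CPM with vehicle (median 73.8) and at 77.7 to 93.5 CPM with nutlin (median 83.5), with an LFC of 0.21 (SE 0.039, adjusted p = 3.20e-05). POLR1C, shared with RNA polymerase III, was at 15.3 to 23.5 CPM with vehicle (median 19.8) and at 19.0 to 24.6 CPM with nutlin (median 21.3), with an LFC of 0.17 (SE 0.067, adjusted p = 0.0287). The POLR1C call was lost with protein-coding transcripts only (LFC 0.41, adjusted p = 0.157) and at 1% FDR, and transcripts of other classes held 83.3% to 94.7% of its counts with vehicle. The conditions overlapped for POLR1B and POLR1C but not for POLR1A. UBTF, the factor that holds ribosomal DNA open, was at 255 to 280 CPM with vehicle (median 266) and at 200 to 220 CPM with nutlin (median 209), with an LFC of -0.35 (SE 0.028, adjusted p = 5.57e-12). TCOF1 (treacle), a nucleolar scaffold for polymerase I, had an LFC of -0.24 (SE 0.032, adjusted p = 1.21e-07).

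The small subunit genes split evenly, with 5 lower, 5 higher and BYSL not passing the test. NOL6, a component of the small subunit processome, was the most increased of the 40 genes, at 109 to 133 CPM with vehicle (median 124) and at 164 to 193 CPM with nutlin (median 178), with an LFC of 0.52 (SE 0.037, adjusted p = 2.46e-13). RRP12, which helps export pre-40S particles, was at 60.6 to 78.0 CPM with vehicle (median 71.4) and at 81.1 to 91.9 CPM with nutlin (median 87.0), with an LFC of 0.30 (SE 0.038, adjusted p = 6.25e-08). Neither gene overlapped between the conditions. NOB1, the endonuclease that makes the last cut of 18S rRNA, was at 40.1 to 51.1 CPM with vehicle (median 43.0) and at 47.9 to 56.2 CPM with nutlin (median 51.1), with an LFC of 0.21 (SE 0.046, adjusted p = 2.15e-04). WDR43, a processome subunit, was at 152 to 167 CPM with vehicle (median 157) and at 167 to 188 CPM with nutlin (median 183), with an LFC of 0.18 (SE 0.030, adjusted p = 8.87e-06). HEATR1, a processome subunit needed for rRNA transcription, was at 182 to 216 CPM with vehicle (median 197) and at 210 to 227 CPM with nutlin (median 216), with an LFC of 0.14 (SE 0.033, adjusted p = 7.79e-04). The conditions overlapped for NOB1, WDR43 and HEATR1.

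PNO1, which holds NOB1 on the pre-40S particle, moved the other way and fell most in this role. It was at 43.97 to 58.4 CPM with vehicle (median 51.7) and at 29.9 to 37.2 CPM with nutlin (median 31.7), with an LFC of -0.67 (SE 0.051, adjusted p = 1.22e-12) and no overlap. The processome proteins UTP20, RRP9, UTP4 and NOP14 had an LFC of -0.39, -0.31, -0.27 and -0.21 in that order, and UTP20 and UTP4 did not overlap between conditions. BYSL (bystin), a late 40S factor, was at 47.4 to 66.9 CPM with vehicle (median 53.3) and at 46.7 to 58.3 CPM with nutlin (median 53.9), with an LFC of -0.04 (SE 0.052, adjusted p = 0.544).

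Of the 13 large subunit genes 8 fell, 3 rose and BOP1 and PES1 did not pass the test. BRIX1, which joins early pre-60S particles, was the most decreased of the 40 genes, at 60.9 to 75.6 CPM with vehicle (median 65.3) and at 33.3 to 40.7 CPM with nutlin (median 36.1), with an LFC of -0.86 (SE 0.044, adjusted p = 1.15e-16). MRTO4, which holds the place of the ribosomal stalk protein on pre-60S particles, had an LFC of -0.56 (SE 0.042, adjusted p = 8.34e-13). The conditions did not overlap for BRIX1 or MRTO4. RRP1B, which binds a protein phosphatase in the nucleolus, was at 259 to 286 CPM with vehicle (median 274) and at 186 to 220 CPM with nutlin (median 199), with an LFC of -0.44 (SE 0.032, adjusted p = 3.60e-13). Its paralog RRP1 was at 69.2 to 87.4 CPM with vehicle (median 73.5) and at 61.0 to 66.0 CPM with nutlin (median 62.7), with an LFC of -0.24 (SE 0.036, adjusted p = 1.60e-06). GNL3 (nucleostemin), a GTPase that also binds MDM2, had an LFC of -0.34 (SE 0.044, adjusted p = 5.68e-08). RRS1, which brings the 5S RNP to the particle, had an LFC of -0.29 (SE 0.035, adjusted p = 2.58e-08), and NOP16 had one of -0.27 (SE 0.057, adjusted p = 1.57e-04).

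The PeBoW complex, which is built of PES1, BOP1 and WDR12 and is needed for processing of the 28S rRNA precursor, held 2 genes that did not pass the test and 1 that fell. PES1 was at 121 to 151 CPM with vehicle (median 130) and at 121 to 142 CPM with nutlin (median 129), with an LFC of -0.02 (SE 0.040, adjusted p = 0.694). BOP1 was at 162 to 202 CPM with vehicle (median 190) and at 169 to 190 CPM with nutlin (median 182), with an LFC of -0.06 (SE 0.039, adjusted p = 0.198). WDR12 was at 89.3 to 96.8 CPM with vehicle (median 91.6) and at 73.0 to 92.3 CPM with nutlin (median 80.2), with an LFC of -0.19 (SE 0.036, adjusted p = 4.71e-05). The conditions overlapped for all 3 genes, and on library totals alone the LFC of WDR12 was 0.00 and those of BOP1 and PES1 were 0.13 and 0.17.

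The 3 large subunit genes that rose did so by small amounts, and all of them overlapped between conditions. WDR74, which works with an ATPase that remodels pre-60S particles, was at 57.0 to 74.3 CPM with vehicle (median 65.1) and at 69.0 to 81.6 CPM with nutlin (median 74.2), with an LFC of 0.20 (SE 0.046, adjusted p = 3.51e-04). NOP2, an rRNA cytosine methyltransferase, was at 140 to 171 CPM with vehicle (median 149) and at 158 to 177 CPM with nutlin (median 163), with an LFC of 0.11 (SE 0.037, adjusted p = 0.0118). PPAN, the homolog of a yeast 60S factor, was at 79.8 to 96.8 CPM with vehicle (median 90.1) and at 90.5 to 103 CPM with nutlin (median 98.1), with an LFC of 0.10 (SE 0.035, adjusted p = 0.0184).

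Levels of different genes were set side by side per length, in TPM summed over all transcripts of a gene, coding or not. With vehicle the 40 genes ran from 3208 TPM ± 67.8 (SD, n = 10) for NPM1 to 8.98 TPM ± 1.03 for UTP20. FBL at 1037 TPM ± 54.1 and NCL at 942 TPM ± 48.0 came next after NPM1. They were followed by NOP10 at 475 TPM ± 37.8, NOP56 at 466 TPM ± 10.3 and NHP2 at 337 TPM ± 18.9, and NOP10 and NOP56 lay within their spread. The polymerase subunits were near the lower end, with POLR1A at 17.7 TPM ± 1.44 and POLR1C at 17.5 TPM ± 3.01, which also lay within their spread. With nutlin NPM1 stood at 2149 TPM ± 131, FBL at 765 TPM ± 51.7 and NCL at 557 TPM ± 32.1, and NOP56 at 324 TPM ± 16.4 stood above NOP10 at 266 TPM ± 18.9. Of the NPM1 level, 1426 TPM with vehicle and 1017 TPM with nutlin lay on NPM1-210, a retained-intron transcript of 268 bases. The highest protein-coding transcript of NOP56, NOP56-201, was at 30.9 TPM with vehicle, whereas the protein-coding NOP10-201 was at 474.5 TPM. The order of the genes is therefore not that of their coding mRNAs. Across the 40 genes the Spearman correlation between LFC and vehicle TPM was -0.51, and across the 9443 mRNAs with at least 10 CPM it was -0.36. The correlation of LFC with effective length was 0.37 across the 40 genes and 0.16 across those mRNAs. These are descriptions across genes measured in the same libraries, and genes are not independent replicates.

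**Figure D3:**
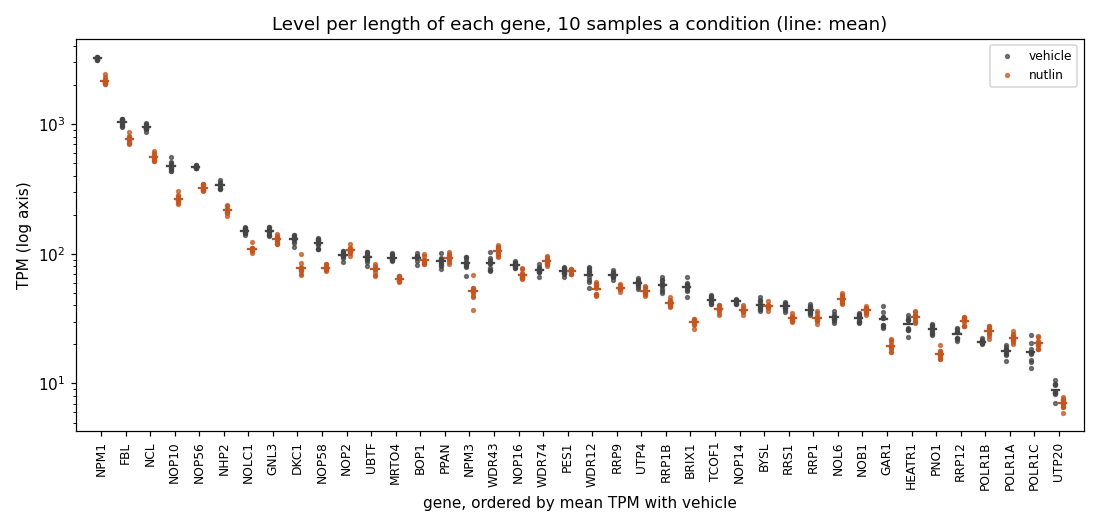
TPM of each of the 40 genes in each sample (log axis), with vehicle in grey and nutlin in orange and the mean of the 10 samples of a condition as a line, ordered by the vehicle mean. NPM1 stands highest at a mean of 3208 TPM with vehicle, and UTP20 lowest at 8.98 TPM.

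Partners within a complex were compared by the log2 ratio of their estimated counts in each sample, which does not depend on library scaling. Of 12 ratios, 9 changed after nutlin at 5% FDR over the 12 (two-sided permutation test of the mean log2 ratio with 100000 resamples, 10 samples per condition). The change of NOB1 against PNO1 was the largest, from -0.22 ± 0.14 (SD) with vehicle to 0.66 ± 0.07 with nutlin. This is a rise of 0.88 (SE 0.048, p = 2e-05, the smallest that the resamples can give, adjusted p = 2.4e-04), and the ratio was above 0 in all nutlin samples and below 0 in all vehicle samples. In the H/ACA core NHP2 rose by 0.20 (SE 0.048, p = 7.6e-04, adjusted p = 0.00304) and GAR1 by 0.17 (SE 0.063, p = 0.0176, adjusted p = 0.0235) against DKC1. NOP10 against DKC1 differed by 0.04 (SE 0.052, p = 0.506, adjusted p = 0.506).

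In the C/D core NOP58 fell by 0.12 (SE 0.040, adjusted p = 0.0103) and FBL rose by 0.11 (SE 0.039, adjusted p = 0.0103) against NOP56. RRP1B fell by 0.21 against its paralog RRP1 (SE 0.044, adjusted p = 0.00168), and WDR12 fell by 0.17 against PES1 (SE 0.050, adjusted p = 0.00852). POLR1B fell by 0.11 against POLR1A (SE 0.034, adjusted p = 0.0103), and NPM3 fell by 0.16 against NPM1 (SE 0.059, adjusted p = 0.0235). The raw p of these 6 ratios lay between 2.8e-04 and 0.0163. BOP1 against PES1 differed by -0.04 (SE 0.025, p = 0.116, adjusted p = 0.127), and POLR1C against POLR1A by -0.15 (SE 0.071, p = 0.0469, adjusted p = 0.0563). Only NOB1/PNO1, WDR12/PES1 and RRP1B/RRP1 passed the test on the TPM scale as well.

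Since MYC proteins bind the E-box CACGTG, the promoters of the 40 genes were searched for it in the RefSeq windows of GRCh38.p14, which run from 250 bases before each annotated start to 50 bases after. Of the 40 genes 33 had a window, and BOP1, NOLC1, NOP58, RRP12, RRP1B, RRS1 and TCOF1 were without an entry. An E-box was held by 15 of the 33 genes (45.5%), by 7.26% of all 35116 windows and by 13.9% of the 7858 genes with a window and a mean of at least 10 CPM. The E-box reads the same on both strands. In all 15 genes an E-box lay within 50 bases of the start, against 495 of the 1176 windows (42.1%) of genes with at least 10 CPM that hold one. The 13.9% counts genes, whereas the 42.1% counts windows. The window of NOP10 held another at 170 bases before the start. The stretches below run from 50 bases before the start to 29 bases after it, on the strand of the gene, with the E-box in capitals. NOP10, UTP20 and RRP9 are shown as the most changed genes with an E-box before the start, and NOL6 as the gene that rose most, chosen after its values were seen.
NOP10 (chr15:34343107-34343186, minus strand): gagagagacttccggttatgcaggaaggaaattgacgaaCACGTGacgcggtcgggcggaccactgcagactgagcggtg
UTP20 (chr12:101280055-101280134, plus strand): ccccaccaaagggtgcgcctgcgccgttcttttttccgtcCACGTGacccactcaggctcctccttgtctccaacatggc
RRP9 (chr3:51941875-51941954, minus strand): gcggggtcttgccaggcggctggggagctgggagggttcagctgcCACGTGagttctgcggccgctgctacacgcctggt
NOL6 (chr9:33473895-33473974, minus strand): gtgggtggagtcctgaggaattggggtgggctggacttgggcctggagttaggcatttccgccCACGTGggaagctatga

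Genes with an E-box were found among those that fell and those that rose. Of the 15 genes 10 were lower, 3 (NOL6, WDR43 and NOP2) were higher and 2 (PES1 and BYSL) did not pass the test, with a median LFC of -0.31. Of the 18 genes with a window and no E-box 11 were lower and 7 were higher, with a median LFC of -0.25. On both strands, CACGCG was held by 11 of the 33 genes (24.2% of genes with at least 10 CPM), the GC box GGGCGG by 26 of 33 (78.8%) and the ETS-type motif CCGGAAG by 11 of 33 (25.2%). A match to a motif was counted whether or not it shared bases with another. The presence of these letters is a description of the window and does not show that a factor binds there.

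**Figure D4:**
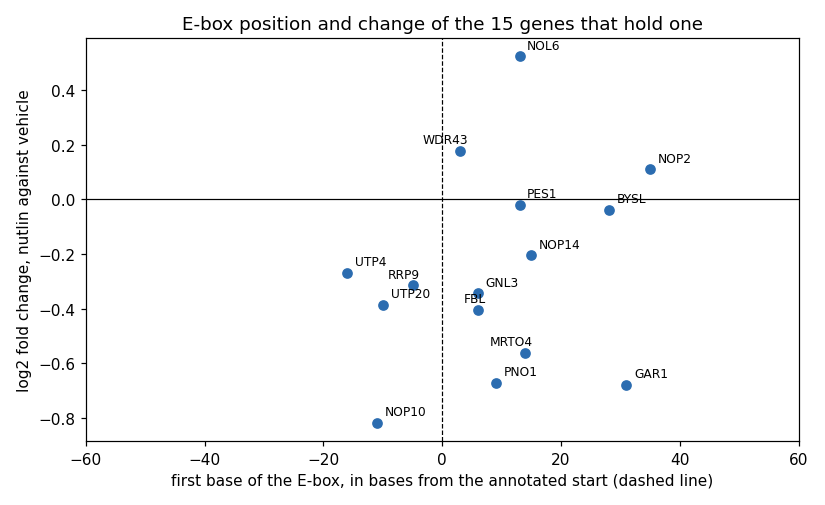
Position of the E-box nearest the start (horizontal axis, bases from the annotated start) and LFC (vertical axis) of the 15 genes whose promoter window holds one. The positions run from 16 bases before the start (UTP4) to 35 bases after it (NOP2), on both sides of an LFC of 0.

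Members of the MYC family changed in both directions. MYCN, the amplified driver of this line, was at 3467 to 4243 CPM with vehicle (median 3696) and at 2586 to 3000 CPM with nutlin (median 2957), with an LFC of -0.41 (SE 0.039, adjusted p = 2.43e-10) and no overlap. MYC was low throughout and rose from 0.306 to 0.902 CPM with vehicle to 0.940 to 6.12 CPM with nutlin, with an LFC of 2.61 (SE 0.269, adjusted p = 9.00e-10). The MAX partner MXD3 had an LFC of -1.68 (SE 0.055, adjusted p = 1.60e-21). Of the 10 genes of the family 5 were lower, 3 (MYC, MXD1 and MXD4) higher and 2 did not pass the test. Over all genes tested 26.5% were lower and 32.3% higher. Among mRNAs with at least 10 CPM 59.3% were lower and 26.0% higher, and the split of the family lies near these shares.

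The other genes of the pathway were taken from lists by function. Of 128 such genes in 5 lists 94 were lower (73.4%) and 18 higher (14.1%), with a median LFC of -0.31, against 59.3% and 26.0% of the mRNAs with at least 10 CPM. On library totals alone 70 were lower and 37 higher. Of the snoRNP assembly factors 8 of 10 fell, among them the ATPase RUVBL2 with an LFC of -0.81, while NOPCHAP1, a NOP58 chaperone, rose with an LFC of 1.26 from a median of 12.1 CPM to 30.2 CPM. Of the other polymerase I genes 6 of 11 fell and 4 rose, and the largest changes were those of the subunit POLR1G (LFC -1.005) and of the terminator TTF1 (LFC -0.71). POLR1G fell from 39.8 to 51.0 CPM with vehicle to 17.5 to 29.4 CPM with nutlin. Of the other subunits in this list POLR1F fell (LFC -0.60, adjusted p = 5.70e-11), POLR1D (LFC 0.29) and POLR1E (LFC 0.18) rose, and POLR1H did not pass the test (LFC 0.05, adjusted p = 0.577). Of the initiation factors RRN3, TAF1A and TAF1B fell and TAF1C and TAF1D rose, so subunits and factors each moved both ways. These genes beyond POLR1G and TTF1 were named after their values were seen.

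Of the other small subunit factors 33 of 43 fell and 5 rose, with the helicase DDX47 (LFC -0.78) and the nuclease-like FCF1 (LFC -0.74) changed most. Of the other 60S factors 36 of 50 fell and 8 rose, with EBNA1BP2 at an LFC of -0.85 and NOP53 at 0.98. NOP53, which recruits the exosome to pre-60S particles, went from 230 to 300 CPM with vehicle to 486 to 565 CPM with nutlin. On library totals alone the splits were 23 lower and 10 higher for the small subunit list and 22 lower and 17 higher for the 60S list. The 60S split was 30 lower and 12 higher with DESeq2 size factors and 29 and 12 with DESeq2 and with filterByExpr. The small subunit list had 31 lower with DESeq2 size factors and with DESeq2 and 29 with filterByExpr, with 5 higher in each. Of the RNA exosome and its cofactors 11 of 14 fell and 0 rose (edgeR, DESeq2 and limma voom alike, and 0 at an unadjusted p under 0.05), with a median LFC of -0.52, EXOSC9 at -1.25 and C1D at -1.047. On library totals 11 exosome genes were lower and 3 higher. The edgeR counts of these 3 lists stand against 59.3% lower and 26.0% higher among mRNAs with at least 10 CPM. Over all genes tested 26.5% were lower and 32.3% higher.

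The mRNAs of the ribosomal proteins themselves moved the other way. Of 79 cytosolic ribosomal protein genes 58 were higher, 0 were lower (0 also with DESeq2, with limma voom and at an unadjusted p under 0.05) and 21 did not pass the test, with a median LFC of 0.34. The share of these genes that was higher was 73.4%. Among mRNAs with a mean of at least 10 CPM 26.0% were higher and 59.3% lower, and over all genes tested 32.3% and 26.5%. On library totals 74 of the 79 were higher. RPS27 (LFC 1.22) and RPS19 (LFC 1.07) changed most. RPS27 was listed at a low level, 11.4 to 17.4 CPM with vehicle and 27.6 to 37.3 CPM with nutlin, whereas RPS19 went from 1408 to 2264 CPM with vehicle to 3167 to 4573 CPM with nutlin. These genes have many processed pseudogenes, so the assignment of their reads is uncertain. Of the 5 genes of the 5S RNP and its loading, the ribosomal proteins RPL11 (LFC 0.49) and RPL5 (LFC 0.41) rose, and the assembly factors RPF2 (LFC -0.44), RRS1 (LFC -0.29) and HEATR3 (LFC -0.25) fell. For each estimated count of the 40 genes there were 7.61 to 9.96 counts of ribosomal proteins with vehicle (median 8.52) and 14.03 to 17.5 with nutlin (median 14.3), with no overlap between conditions.

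**Figure D5:**
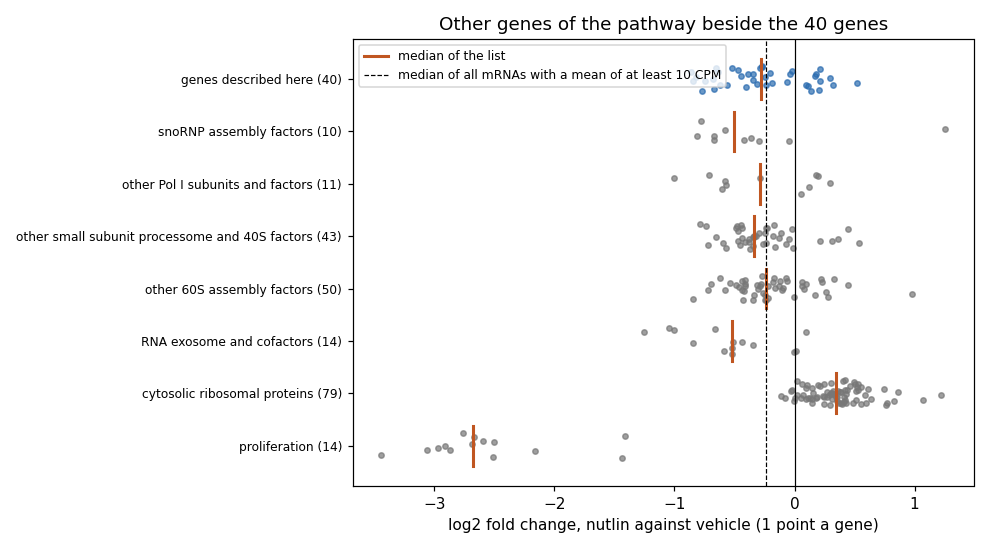
LFC (horizontal axis, nutlin against vehicle) of each gene of the 40 (blue) and of 7 other lists (grey), with the number of genes in brackets, the list median as an orange bar and the median of mRNAs with at least 10 CPM as a dashed line at -0.24. The ribosomal proteins have a median of 0.34, and the proliferation list has one of -2.68.

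Reads of a gene fall on protein-coding transcripts and on others such as retained-intron forms, and the ratio of the latter to the former was tested in 33 of the 40 genes (limma-trend on log2 ratios of estimated counts plus 0.5, Benjamini-Hochberg adjustment over 7600 genes). It rose in 13 of the 33 genes (39.4%), against 35.5% of the 7600 genes, and fell in 1 gene (NOLC1), against 6.91%. The share of genes with a rise is near that of all genes. In GNL3 the other transcripts made up 21.4% to 27.1% of counts with vehicle (median 24.5%) and 28.3% to 35.0% with nutlin (median 30.6%), with a log2 ratio change of 0.50 (SE 0.076, adjusted p = 2.8e-05). In DKC1 they rose from 4.35% to 7.46% with vehicle (median 6.12%) to 7.17% to 13.8% with nutlin (median 10.2%), a change of 0.85 (SE 0.142, adjusted p = 7.7e-05). TCOF1 changed by 0.54 (SE 0.077, adjusted p = 1.4e-05), with medians of 5.69% and 8.13%. The other 10 genes with a rise were UBTF, GAR1, UTP4, NHP2, NOP16, NCL, NPM1, HEATR1, NPM3 and PPAN. In NOLC1 the median went from 7.01% to 1.56%. In NOP56, an intron host of snoRNAs, the other transcripts held 75.1% to 82.1% of counts with vehicle and 74.6% to 82.5% with nutlin, and in POLR1C they held 80.03% to 94.4% with nutlin. The summed counts of both genes thus rest mostly on transcripts without a full coding sequence, and neither ratio passed the test.

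Some of the 40 genes share sequence or place with other genes. The 49 pseudogenes named after NPM1 together drew 39.0 counts per sample with vehicle and 39.1 with nutlin, against 33100 and 22190 for NPM1 itself. PPAN overlaps the read-through gene PPAN-P2RY11 on its own strand, which had 250 counts with vehicle and 378 with nutlin against 1384 and 1518 for PPAN. It also overlaps P2RY11 on its own strand (634 and 781 counts), so the counts of PPAN are uncertain. WDR74 overlaps RNU2-2P on its own strand, which had 12.4 counts with vehicle and 84.0 with nutlin against 997 and 1179 for WDR74. The WDR74 transcript with most counts, WDR74-201, had 611 with vehicle and 586 with nutlin, so the rise of the gene lay in its other transcripts and is uncertain too. UTP4 overlaps SNTB2 on its own strand, which had 464 counts with vehicle and 458 with nutlin against 1600 and 1367 for UTP4. On the other strand UTP4 overlaps CHTF8 (928 and 649 counts) and DERPC (920 and 585 counts). NOP16 (1070 and 914 counts) overlaps HIGD2A (1029 and 871 counts) and ARL10 (1225 and 1596 counts) on the other strand. Smaller overlaps of that kind include RMND5B (590 and 618 counts) with NHP2 and LGALS8 (395 and 466 counts) with HEATR1. BRIX1 overlaps RAD1 on the other strand, and RAD1 had 714 counts with vehicle and 364 with nutlin against 1008 and 572 for BRIX1. GNL3 (3208 and 2599 counts) overlaps GLT8D1 (710 and 1111 counts) and PBRM1 (2669 and 2251 counts) on the other strand. The transcript class ratios of GNL3, UTP4 and NOP16 are therefore uncertain, and so are the falls of UTP4 and NOP16. POLR1C, at 288 counts with vehicle, lies across XPO5 (3529 counts) and YIPF3 (948 counts) on the other strand. The libraries were stranded, but whether the counting used strand is not given in the sources used here, and reads from such pairs may not be separable.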

How the data were processed

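RNA-seq of 20 NGP samples was analysed, 10 per condition, grouped by the treatment in each sample's label. Per the labels and the study's methods, the authors made stranded poly(A)+ libraries and quantified read pairs with kallisto 0.42.4 on GRCh38 transcripts. The deposited files hold 198968 transcripts with 3 values each. Their estimated counts are those of the authors' kallisto runs with no normalization, the TPM values are those counts scaled by the authors' kallisto runs for length and library size, and the effective length is the deposited length correction in bases, which was used in 1 alternative and for 1 correlation across genes.

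Transcripts were assigned to genes with GENCODE 44 (191106 matched, 7862 left out). Estimated counts were summed per gene and rounded. The test covered mRNA and lncRNA genes with 1 count or more per condition, used the TMM-normalized quasi-likelihood F-test of edgeR 4.0.16 (R 4.3.3), and called SDE genes at 5% FDR after Benjamini-Hochberg adjustment. The SE of an LFC was derived from its F statistic, and CPM values are TMM-scaled. Ratios of partners were compared with scipy 1.17.1, and transcript classes with limma 3.58.1 in genes with a mean of at least 10 counts in each class. DESeq2 1.42.0, limma voom, other scalings and filters, a replicate block and the removal of libraries were tried as alternatives. The edgeR and limma steps were tested on simulated data.

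The lowest, median and highest value of each condition are given for several groups of genes. These are the genes with the highest and lowest LFC of each role, genes that rose or did not pass the test, partners in ratios and NCL. From each other list the most changed SDE genes at a mean level of 1 CPM or more are named. The 40 genes and the other lists were chosen with earlier results of these data known. The study's methods call the samples of a condition biological replicates, but no source used here says that they were separate cultures, so the p-values measure the spread between these samples, which may be in part technical. Promoter windows are those of RefSeq (GRCh38.p14). Of 10 samples per condition 8 share a replicate number, and the correlation of deviations of same-numbered samples lay between -0.04 and 0.08, so the numbers were not taken as pairs.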

Additional observations from a re-analysis of the deposited data

Results flagged for a closer look

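Dixon's criterion for a sample far from the others (the 95% critical value for groups of 10) was applied to 108 groups of values, of which chance flags about 1 in 20, and 13 were flagged. Vehicle replicate 10 was the far sample in 5 of them, high for NOP56 (500.3 CPM, next 451), NOP16 (84.6 CPM, next 73.8), RRP1 (87.4 CPM, next 76.9) and MRTO4 (196 CPM, next 177) and low for the log2 ratio of RRP1B to RRP1 (1.60, next 1.84). Nutlin replicate 6 was the far sample in 6, high for FBL (703 CPM, next 598), NHP2 (168 CPM, next 141), NPM3 (42.6 CPM, next 31.1), the log2 ratio of FBL to NOP56 (1.12, next 0.96), that of NPM3 to NPM1 (-5.29, next -5.56) and the ribosomal protein counts per count of the 40 genes (17.5, next 15.3). The remaining flags were a high HEATR1 value in nutlin replicate 4 (227 CPM, next 219) and a low PPAN value in vehicle replicate 4 (79.8 CPM, next 88.9).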

How the results depend on the processing

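The counts of 26 lower and 11 higher genes held with DESeq2 size factors, DESeq2, limma voom, filterByExpr, unmatched transcripts added to library sizes and, chosen after seeing the data, without vehicle replicate 10 and nutlin replicate 6. With 1% FDR 8 genes were higher, with the effective length offset 10 (PPAN lost), with protein-coding transcripts only 9 (POLR1C and PPAN lost), and with library totals 14, beside 20 lower. For the lists, library totals (chosen after seeing the data) gave 10 higher small subunit factors, 22 lower and 17 higher 60S factors, 70 lower and 37 higher genes over the 5 lists, 2 higher snoRNP assembly factors and 3 higher exosome genes, filterByExpr gave 2 higher exosome genes, and 1 ribosomal protein was lower without the 2 libraries. DESeq2 size factors, DESeq2 and filterByExpr also lowered the counts of lower 60S and small subunit factors, as given above. The sign of 3 genes that did not pass the test, and of WDR12, depended on the scale. BYSL was at 0.00825 with DESeq2 size factors, 0.00815 with DESeq2, 0.15 with library totals and 0.0377 with filterByExpr. PES1 was at 0.0277, 0.0278, 0.17 and 0.0573 in that order, 0.0106 with protein-coding transcripts only and 0.0017 with unmatched transcripts. BOP1 was at 0.13 with library totals and 0.0170 with filterByExpr, and WDR12 at 3.0e-04 with library totals.

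On the TPM scale the ratio change was -0.0913 for NOP58/NOP56, 0.0877 for FBL/NOP56, 0.10 for NHP2/DKC1, 0.0575 for GAR1/DKC1, -0.0823 for POLR1B/POLR1A and -0.15 for NPM3/NPM1, none past the threshold, and -0.10 for NOP10/DKC1, of changed sign. With protein-coding transcripts only NOP58/NOP56 (-0.19), FBL/NOP56 (0.0733) and WDR12/PES1 (-0.12) missed the threshold and POLR1C/POLR1A changed sign (0.0339). The cause of these changes was not tested. A replicate block could be fitted in 16 samples, and with it 26 genes were lower and 10 higher (NOP2 lost), BYSL was at 0.0246 and PES1 at 0.0228, close to their values in these 16 samples unpaired, a fit added after seeing the data (0.0201 and 0.0205), GAR1/DKC1 was at 0.18 and missed the threshold, and 0 genes had a lower transcript class ratio by limma-trend (1 at an unadjusted p under 0.05). POLR1C rests on a mean of 288 counts per vehicle sample.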
